A study of Mus musculus with 63 samples.

Results

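The genes described here encode proteins by which an antigen-presenting cell costimulates or restrains a T cell, and receptors of the presenting cell itself. The 10 members were chosen by symbol (Cd40, Cd80, Cd86, Icosl, Icam1, Cd274, Pdcd1lg2, Vsir, Lgals9 and Pirb), matched to the Ensembl identifiers of the deposited count table, and followed through all 63 libraries in 16 groups. They are 10 of 56748 genes in the table and 10 of the 22147 genes that passed the filter on low counts, so that every member was tested.

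A T cell that meets its antigen on a macrophage or dendritic cell also reads other surface proteins of that cell. CD80, CD86 and ICOSL bind CD28-family receptors and costimulate, CD40 receives a signal from the T cell's CD40 ligand that acts through NF-κB, and ICAM1 holds both cells together by binding the integrin LFA-1. PD-L1 (encoded by Cd274) and PD-L2 (Pdcd1lg2) bind PD-1 and restrain the T cell, VISTA (Vsir) and galectin-9 (Lgals9) are further checkpoint ligands, and PIR-B (Pirb) is an inhibitory receptor of mouse myeloid cells that binds MHC class I. In macrophages, Cd274, Cd40, Cd86 and Icam1 are known to be induced by interferon-gamma (IFN-γ).

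The RNA came from peritoneal macrophages that thioglycollate (3%, injected 72 h earlier) had drawn into the peritoneum of mice, and that were kept if they adhered to plastic. The mice were R1441C KI animals, in which the endogenous Lrrk2 gene carries the R1441C change linked to inherited Parkinson's disease, or WT B6 controls, of both sexes, aged 18 to 21 months (old) or 2 to 3 months (young). Cells had received IFN-γ (100 U for 18 h) or vehicle. The sources used here do not say whether KI animals carried the change on one or both alleles, nor whether each library came from its own animal, so p-values measure the spread between libraries, which may be technical.

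Among old KI mice, 5 libraries of treated and 5 of untreated cells came from females, and 5 and 3 from males. Among young KI mice these numbers were 2 and 5 for females, and 3 and 3 for males. Old WT mice gave 5 treated and 5 untreated female libraries, and 5 and 3 male ones. Young WT mice gave 3 treated and 3 untreated female libraries, and 5 and 3 male ones.

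Total counts ran from 73.6 to 106.6 M per library, and the macrophage markers summed to 18941 to 38796 CPM (counts scaled to the library total) in each library, led by Lyz2. The median of this sum was 26250 CPM under the old label and 30532 CPM under the young label. The labels were not all borne out by the counts. Cxcl9, a chemokine gene that IFN-γ induces, ranged over 952 to 4071 CPM under the old label (36 libraries) and over 0.956 to 330.1 CPM under the young label (27 libraries), with no overlap, whereas treated libraries (0.956 to 3354 CPM) and untreated ones (1.37 to 4071 CPM) overlapped. One treatment field names IFN-γ for the 3 KI old untreated males, against their title and column name. The female transcript Xist was nearly absent, at 1.69 and 1.55 CPM, from libraries 4 and 5 of treated old KI females. Their Ddx3y, a Y chromosome gene, was at 0.624 and 0.601 CPM, against 33.9 to 67.9 CPM in males. Among females, Ddx3y was highest in WT young IFN-γ females 1 and 5 (5.89 and 8.93 CPM). KI young untreated females 2 and 5 came next (4.13 and 4.37 CPM), and the source of these reads was not tested. Comparisons below are therefore between labels, and age and response to IFN-γ cannot be told apart along the age label. The genotype difference of Lrrk2 over the strata did not pass an adjusted p of 0.05 (edgeR, log2 change -0.26 ± 0.10, adjusted p = 0.159), which does not show equal levels. Its strata ran from -0.75 in young IFN-γ females to 0.41 in old untreated females. The counts do not show the base change itself.

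Levels were compared between members on the deposited FPKM scale, which divides by gene length. In libraries labelled old, the order of median levels was Cd274 (236 FPKM), Pirb (203), Lgals9 (93.8), Icam1 (79.0), Vsir (52.1), Cd40 (29.6), Pdcd1lg2 (24.3), Cd86 (23.4), Cd80 (3.60) and Icosl (2.97 FPKM). In libraries labelled young, Pirb led with 166 FPKM, followed by Vsir (133), Lgals9 (49.3), Cd274 (28.5), Icam1 (8.24), Cd86 (3.84), Cd80 (3.36), Cd40 (3.12), Pdcd1lg2 (1.72) and Icosl (1.04 FPKM). Cd274 was thus the most abundant ligand gene under the old label, where its range of 181 to 312 FPKM overlapped that of Pirb (171 to 257 FPKM) but not that of Lgals9 (73.1 to 146 FPKM), and Vsir was the most abundant ligand gene under the young label. Neighbours such as Cd40, Pdcd1lg2 and Cd86 under the old label overlapped in range.

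**Figure D1:**
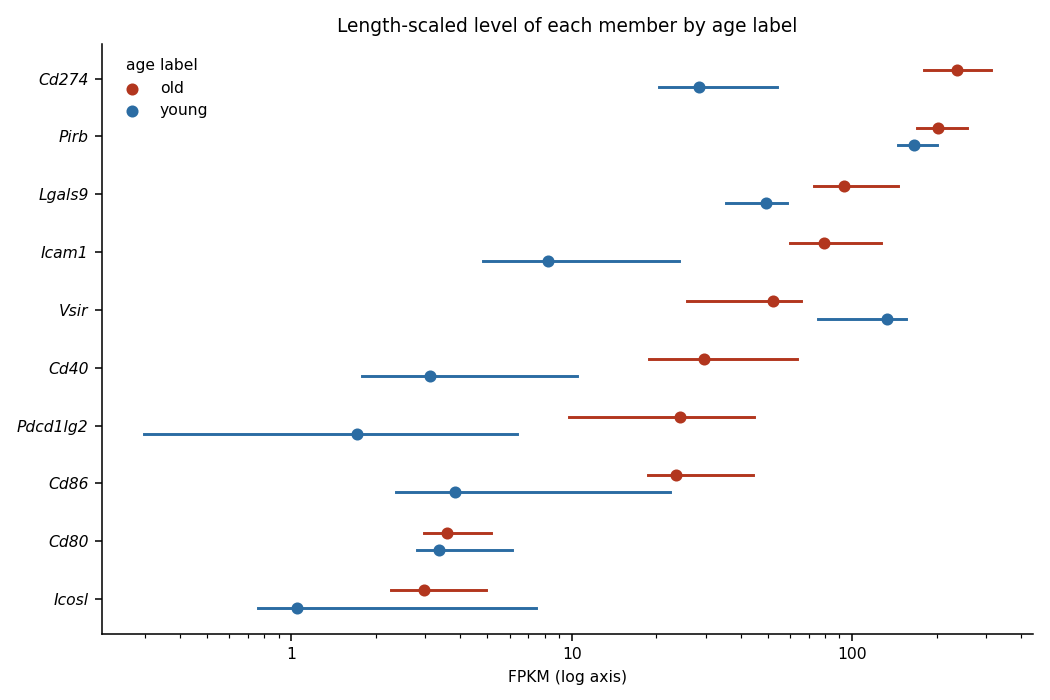
Length-scaled level of each member (FPKM, log axis) in the 36 libraries labelled old (upper line of each pair) and the 27 labelled young (lower line), with the median as a point and the range as a line. The ranges of Cd274, Pdcd1lg2, Icam1, Cd40, Lgals9 and Vsir do not overlap between the labels, and only that of Vsir lies lower under the old label.

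**Figure D2:**
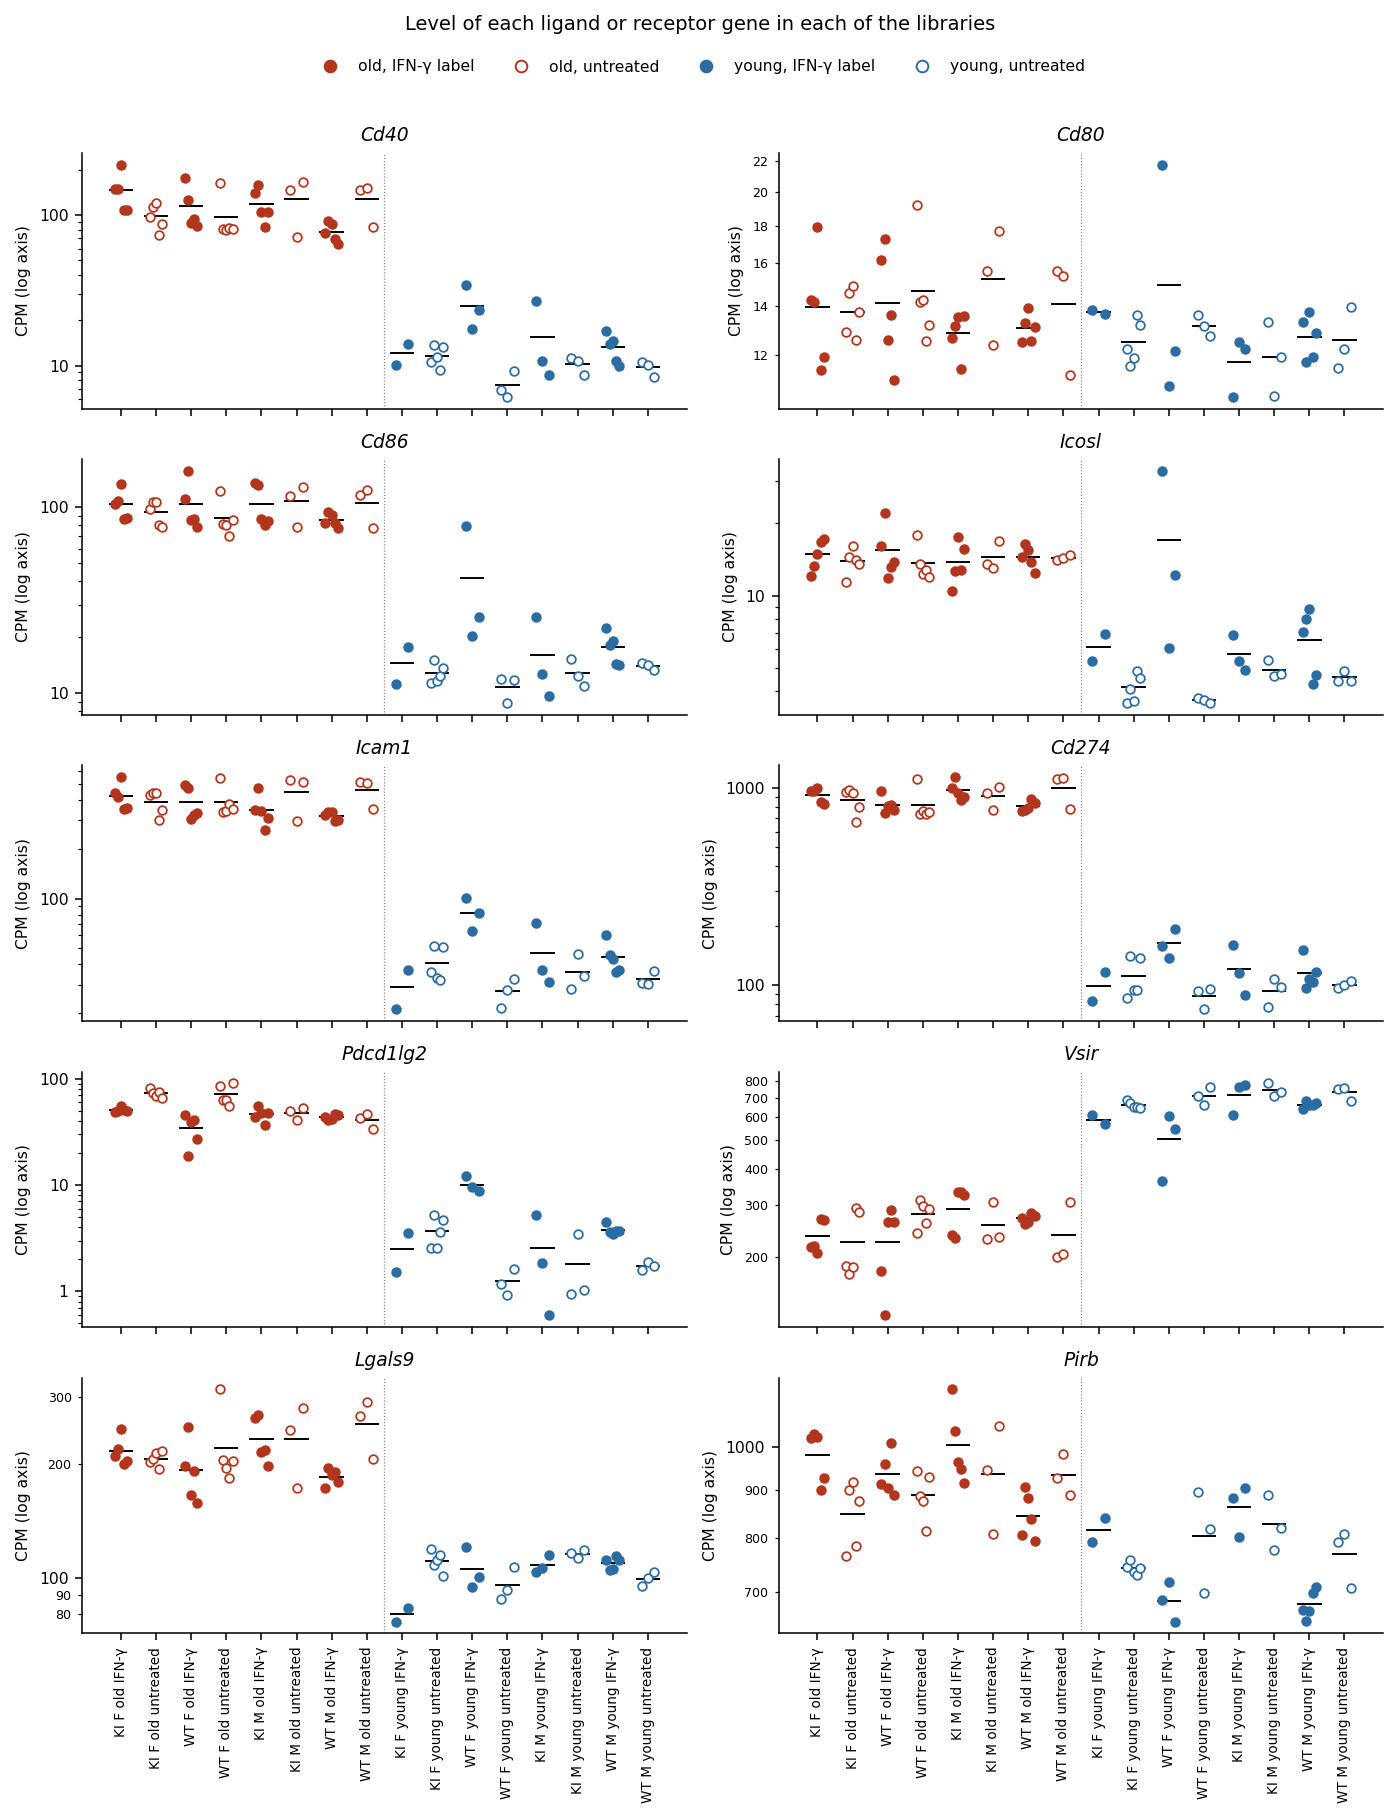
Level of each member (CPM, log axis) in every library, in the 16 groups, with the group mean as a bar. Red marks libraries labelled old and blue those labelled young, and filled points carry the IFN-γ label. WT young IFN-γ female 1 is the high blue point of Cd80, Cd86 and Icosl.

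The promoters of 4 members are shown, of an adhesion gene and 2 checkpoint ligand genes that were higher under the old label without overlap and of Vsir, which was lower without overlap. The window runs from 250 bases before to 50 bases after the RefSeq start (GRCm38.p6, an earlier build than GRCm39, which the submitters' processing notes name), and capitals mark the motifs found on either strand, of 2 that were searched: the IRF element GAAANNGAAA and the κB motif GGGNNNNNCC.
Icam1 (chr9:21015690-21015989, plus strand): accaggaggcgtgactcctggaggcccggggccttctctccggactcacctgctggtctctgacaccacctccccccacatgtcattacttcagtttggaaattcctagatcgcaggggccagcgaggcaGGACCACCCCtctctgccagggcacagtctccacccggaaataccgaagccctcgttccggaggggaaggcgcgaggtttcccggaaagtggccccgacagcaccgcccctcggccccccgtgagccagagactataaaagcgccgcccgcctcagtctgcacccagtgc
Cd274 (chr19:29367188-29367487, plus strand): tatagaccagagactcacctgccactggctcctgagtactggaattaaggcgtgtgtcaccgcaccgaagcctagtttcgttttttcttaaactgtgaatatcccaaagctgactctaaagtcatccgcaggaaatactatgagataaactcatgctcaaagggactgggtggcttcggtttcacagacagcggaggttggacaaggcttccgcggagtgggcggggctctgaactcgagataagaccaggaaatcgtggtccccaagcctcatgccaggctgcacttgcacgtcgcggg
Lgals9 (chr11:78984875-78985174, minus strand): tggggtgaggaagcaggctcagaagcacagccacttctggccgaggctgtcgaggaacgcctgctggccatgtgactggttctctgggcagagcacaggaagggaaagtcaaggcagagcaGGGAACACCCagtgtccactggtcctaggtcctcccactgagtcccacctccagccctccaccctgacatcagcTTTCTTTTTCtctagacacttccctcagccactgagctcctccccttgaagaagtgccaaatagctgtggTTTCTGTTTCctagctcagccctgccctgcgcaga
Vsir (chr10:60346601-60346900, plus strand): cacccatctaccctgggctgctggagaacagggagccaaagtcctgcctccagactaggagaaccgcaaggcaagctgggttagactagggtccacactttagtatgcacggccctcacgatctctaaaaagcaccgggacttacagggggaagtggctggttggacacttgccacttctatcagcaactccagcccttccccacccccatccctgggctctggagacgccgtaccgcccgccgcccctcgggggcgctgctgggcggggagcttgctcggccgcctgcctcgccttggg
Icam1 held 1 κB match, whose first base lay 120 bases before the start. Lgals9 held 2 IRF matches, 55 bases before and 15 bases after the start, and a κB match 129 bases before it that reads on both strands. The windows of Cd274 and Vsir held neither motif. Of 8 members with a promoter in the RefSeq table, 1 held the IRF element and 6 the κB motif, and over all 32851 promoters of this length these shares were 3.44% and 50.8%. Cd40 and Cd86 were not matched. A match describes the letters of these windows and is not a measured binding site.

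The costimulatory genes were higher in libraries labelled old, by 2.47-fold for Icosl to 9.88-fold for Icam1, with Cd80 as the exception. Of the 10 members, 9 were called higher and 1 (Vsir) lower over the mean of the 8 strata of genotype, sex and treatment label, where a call is an adjusted p under 0.05 in edgeR's quasi-likelihood test. Of all genes tested, 31.9% were called higher and 38.9% lower in this contrast (70.8% in either direction), so a call by itself sets no gene apart. For 6 members the ranges of old and young libraries did not overlap (5 higher and Vsir lower under the old label), as they did not for 4.79% of all genes in the first direction and 1.84% in the other (6.62% in either). The median log2 change was 1.97 over the members and -0.07 over all genes tested. In whole-well RNA, fewer cells of a type and less RNA per cell cannot be told apart.

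Cd40, the receptor through which helper T cells activate macrophages, ranged over 64.3 to 217 CPM under the old label (median 101) and over 6.19 to 34.4 CPM under the young label (median 10.7). Every old library lay above every young one, and the log2 change was 3.18 ± 0.12 (SE, adjusted p = 2.15e-29). Cd86, the CD28 and CTLA-4 ligand, was at 70.2 to 158 CPM (median 87.3) under the old label and at 8.84 to 79.3 CPM (median 14.1) under the young label, with a log2 change of 2.63 ± 0.11 (adjusted p = 1.18e-27). A single young library, WT young IFN-γ female 1 at 79.3 CPM, reached into the old range.

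Icam1, the adhesion ligand of LFA-1, spanned 264 to 552 CPM (median 352) under the old label and 21.2 to 101 CPM (median 36.1) under the young label, with no overlap and a log2 change of 3.30 ± 0.10 (adjusted p = 3.67e-34). Icosl, the ligand of ICOS, was low throughout, at 10.4 to 22.2 CPM (median 14.0) under the old label and 3.57 to 33.1 CPM (median 4.87) under the young label (log2 change 1.30 ± 0.09, adjusted p = 5.06e-18). The highest Icosl of all libraries, 33.1 CPM, was again in WT young IFN-γ female 1. Icosl was called higher in 7 of the 8 strata and did not pass in WT IFN-γ females, where its log2 change was -0.15 ± 0.24 (adjusted p = 0.683), and 0.77 (adjusted p = 0.00579) without that library.

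Cd80, the other B7 ligand of CD28 and CTLA-4, stayed within a narrow range of 11.1 to 19.2 CPM (median 13.6) under the old label and 10.5 to 21.8 CPM (median 12.5) under the young label. Its mean log2 change of 0.12 ± 0.05 only just passed (adjusted p = 0.0466), it passed in 0 of the 8 strata, and 23 of the 63 omissions of a single library, in old and young groups alike, ended the call (adjusted p 0.000512 to 0.0876 over the omissions). Cd80 and Cd86, which share their receptors, therefore differed in size of change, with 1.08-fold for Cd80 and 6.18-fold for Cd86, though that difference was not tested.

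Of the inhibitory ligands, both PD-1 ligands were higher under the old label and VISTA was lower. Cd274 spanned 674 to 1135 CPM (median 862) under the old label and 75.6 to 194 CPM (median 104) under the young label, a log2 change of 3.01 ± 0.07 (adjusted p = 1.48e-39). Pdcd1lg2 was at 18.6 to 90.7 CPM (median 48.1) under the old label and at 0.594 to 12.0 CPM (median 3.44) under the young label, and its log2 change of 4.15 ± 0.14, or 17.7-fold, was the largest of the 10 members (adjusted p = 3.13e-32). The groups did not overlap for either gene. Both genes neighbour each other on chromosome 19, and each overlaps an annotated antisense transcript: A930007I19Rik, beside Pdcd1lg2, had 506 to 2450 counts per library against a median of 3767 for Pdcd1lg2, and AC119228.1, beside Cd274, had 131 to 7006 counts against a median of 71321. The strand setting of the counting is not given in the sources used here, so reads of each pair may not be fully separated.

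Vsir was the single member lower under the old label, at 126 to 332 CPM (median 263) against 364 to 784 CPM (median 669) under the young label. Every old library lay below every young one, the log2 change was -1.39 ± 0.06 (0.382-fold, adjusted p = 1.06e-26), and it was called lower in all 8 strata (-1.62 to -1.17). Lgals9, a galectin that binds TIM-3, was at 157 to 315 CPM (median 204) under the old label and 76.6 to 121 CPM (median 106) under the young label, with no overlap and a log2 change of 1.08 ± 0.05 (adjusted p = 1.09e-26).

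Pirb differed least among the members with a call in most strata. It spanned 765 to 1152 CPM (median 915) under the old label and 652 to 905 CPM (median 744) under the young label, so the ranges overlapped, and its log2 change was 0.25 ± 0.03 (1.19-fold, adjusted p = 9.93e-12), with 6 of 8 strata called higher. Pirb belongs to a family of near-identical receptor genes (the activating Pira genes), and how reads shared among them were counted is not given, so its values are uncertain to that degree.

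Across the 8 strata, 69 of the 80 tests of members by age label were called, 61 higher and 8 lower, where 40% of the tests of all genes were called (19.7% higher and 20.2% lower). Cd40, Cd86, Icam1, Cd274, Pdcd1lg2 and Lgals9 were called higher in each of the 8 strata. The smallest changes of Pdcd1lg2 (1.76) and Cd86 (1.32) both fell in WT IFN-γ females. Over the 16 group means, Cd40, Cd86, Icam1, Cd274 and Pdcd1lg2 had Pearson correlations of 0.975 to 0.994 with each other and of -0.982 to -0.967 with Vsir, and Cd80 had 0.571 to 0.654 with the same 5 genes. These describe 16 points that mostly fall into the clusters of the age label.

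Among 10802 genes compared over the 16 group means, the closest pattern to that of Cd86 was Nfkb1 (r = 0.998), to Icam1 Sod2 (0.998), to Cd274 Phf11b (0.998), to Cd40 Batf2 (0.997), to Pdcd1lg2 Clec9a (0.996) and to Vsir Rnase4 (0.996). Icosl was most like the MHC class II accessory gene H2-DMb2 (0.985) and Lgals9 like Usp39 (0.993). The closest genes to Pirb (Clec2d, 0.934) and Cd80 (Tnik, 0.840) were less alike.

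Summed transcripts of marker lists also differed by age label, where 31.9% of all genes were called higher and 38.9% lower. The macrophage list had 2 of 9 genes called higher and 6 lower. Genes of the dendritic cell list and of the neutrophil and eosinophil list went both ways. The dendritic cell list, of which 8 of 8 genes were tested, summed to 68.3 to 218 CPM under the old label and 10.3 to 63.3 CPM under the young label, without overlap. Of its genes, 5 were called higher and 2 lower by age label, with a median log2 change of 0.81. Its most abundant gene on average was Clec9a under the old label (28.0 to 199.7 CPM, against 0.765 to 19.2 CPM under the young label) and Fscn1 under the young label (2.93 to 23.6 CPM, against 5.11 to 17.6 CPM under the old label). Ccr7 spanned 0.692 to 26.8 CPM under the old label and 0.337 to 19.8 CPM under the young label. Flt3 spanned 0.161 to 0.983 CPM under the old label and 0.0691 to 0.882 CPM under the young label, Zbtb46 0.593 to 2.94 CPM and 0.686 to 2.65 CPM in the same order of labels, and Xcr1 0.333 to 1.65 CPM and 0 to 0.212 CPM. Cd209a was at 0.0499 to 0.342 CPM under the old label and 0.473 to 5.30 CPM under the young label, and Xcr1 and Siglech were at 0 in 1 and 2 libraries. The neutrophil and eosinophil list, of which 6 of 8 genes were tested, summed to 4.23 to 32.7 CPM under the old label and 14.6 to 114 CPM under the young label, with 2 genes called higher and 3 lower and with Ly6g and Epx at 0 in 37 and 47 libraries. Its most abundant genes were Mmp8 (1.92 to 12.0 CPM under the old label, 8.45 to 94.9 CPM under the young label) and Siglecf (0.906 to 28.5 CPM under the old label, 5.31 to 20.7 CPM under the young label). The mesothelial and fibroblast list, with 8 of 8 genes called lower, summed to 10.6 to 213 CPM under the old label and 26.2 to 324 CPM under the young label. The part of these cells in the changes of the members was not tested.

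**Figure D3:**
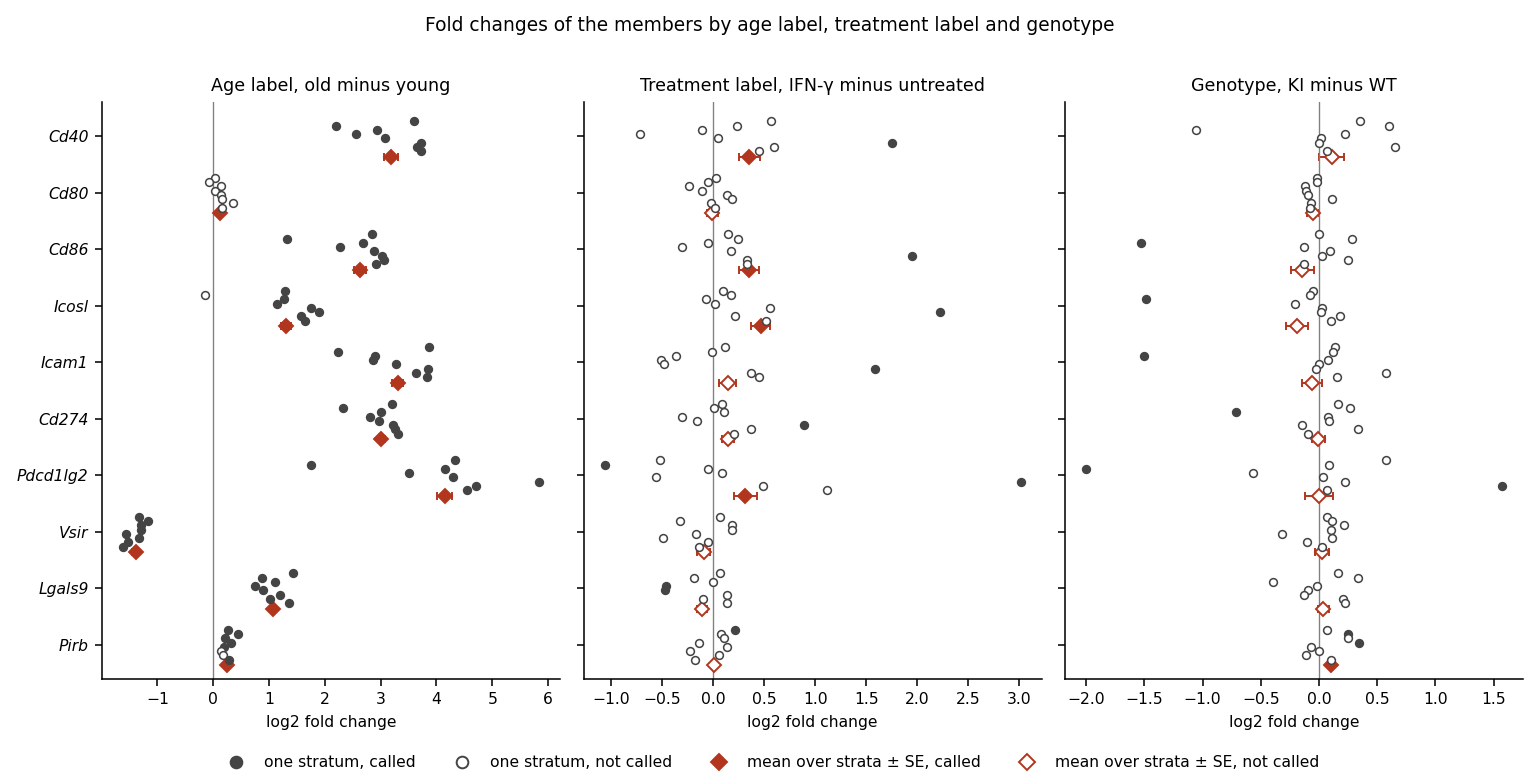
Log2 fold changes of the members for the age label, the treatment label and genotype. Small points are the 8 strata of each comparison, filled where called, and diamonds are the mean over the strata ± SE. By age label the 8 strata of Vsir lie below 0 and those of 6 members are called above 0, while for the treatment label and genotype the points far from 0 come mostly from young females.

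By treatment label the members differed far less. Of the 10, 4 were called higher and 0 lower over the mean of the 8 strata (6 had an unadjusted p under 0.05, and DESeq2 likewise called 0 lower), where 12% of all genes were called higher and 14.1% lower (26% in either direction). Icosl was higher by a log2 change of 0.47 ± 0.09 (adjusted p = 0.000126), Cd86 by 0.35 ± 0.10 (adjusted p = 0.00658), Cd40 by 0.35 ± 0.11 (adjusted p = 0.01) and Pdcd1lg2 by 0.31 ± 0.12 (adjusted p = 0.0386). For Pdcd1lg2 the average of the group means had the other order, with 24.2 CPM for the IFN-γ label and 30.2 CPM for untreated libraries. Its strata went both ways, and 9 of 63 omissions ended the call (adjusted p 0.00337 to 0.189 over the omissions), among them that of WT young IFN-γ female 1 (0.31, adjusted p = 0.0544). Cd274 (0.15 ± 0.06, adjusted p = 0.0558), Icam1 (0.14 ± 0.08, adjusted p = 0.208) and Lgals9 (-0.11 ± 0.05, adjusted p = 0.0678) were not called.

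The calls came mainly from young WT females. Of 80 stratum tests, 7 were called higher and 3 lower, where 4.42% of the tests of all genes were called higher and 4.17% lower (8.59% in either direction). Of the 7, 6 lay in WT young females, where 10% of all genes were called higher. There Icosl was at 33.1, 6.06 and 12.2 CPM in the treated libraries (numbered 1, 2 and 5) and at 3.75, 3.68 and 3.57 CPM in the untreated ones, a log2 change of 2.22 ± 0.30 (adjusted p = 5.56e-07). Pdcd1lg2 was at 12.0, 9.50 and 8.73 CPM in treated libraries against 1.17, 0.930 and 1.64 CPM in untreated ones (log2 change 3.02 ± 0.39, adjusted p = 4.24e-07). Both groups stood apart for each gene, and so they did for Cd86, with 79.3, 20.3 and 25.8 CPM against 11.9, 8.84 and 11.7 CPM (1.95 ± 0.32, adjusted p = 1.4e-05). Cd40 (1.76 ± 0.34), Icam1 (1.59 ± 0.27) and Cd274 (0.89 ± 0.18) were also called higher in this stratum. Treated libraries 1 and 5 had the highest Ddx3y among females (5.89 and 8.93 CPM, against 0.125 CPM in treated library 2), and the part of this in the calls was not tested.

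The remaining calls by treatment label were of 3 genes. In WT old females, Pdcd1lg2 was at 45.5, 18.6, 39.3, 40.4 and 26.9 CPM with the IFN-γ label against 85.8, 62.5, 63.4, 55.4 and 90.7 CPM untreated, a log2 change of -1.07 ± 0.25 (adjusted p = 0.00201), and all treated libraries lay below the untreated ones. Lgals9 was lower in WT old males (-0.47 ± 0.13, adjusted p = 0.0382) and in KI young females (-0.47 ± 0.15, adjusted p = 0.0216, 2 treated libraries). Pirb was higher in KI old females (0.21 ± 0.07, adjusted p = 0.0468).

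B cell transcripts moved with the treatment label. The B cell list, of which 10 of 10 genes were tested, summed to 68.8 to 2769 CPM in libraries labelled IFN-γ and to 21.3 to 97.3 CPM in untreated ones, and Cr2 was at 0 in 1 library. The T and NK cell list came to 2.42 to 29.0 CPM in treated and 1.34 to 4.98 CPM in untreated libraries, and the mast cell and basophil list to 1.01 to 115 CPM in treated and 1.60 to 11.7 CPM in untreated ones. The mesothelial and fibroblast list, with 0 genes called higher and 6 of 8 lower, had a median sum of 88.4 CPM in treated and 163.9 CPM in untreated libraries. The neutrophil and eosinophil list had 0 of 6 tested genes called higher and 3 lower, with sums of 4.23 to 105 CPM in treated and 20.4 to 114 CPM in untreated libraries. The dendritic cell list had 1 of 8 genes called higher and 1 lower. Of all genes tested, 12% were called higher and 14.1% lower in this contrast. The part of these cells in the changes of the members was not tested beyond the omissions that follow. WT young IFN-γ female 1 had the highest B cell sum (2769 CPM) together with the highest Icosl (33.1 CPM) and Cd80 (21.8 CPM) of all libraries. WT old IFN-γ female 2 had the next B cell sum (1991 CPM), the highest Cd86 of all libraries (158 CPM) and the lowest Vsir (126 CPM). Without both libraries, 6 members were still called higher in WT young females, with smaller changes of Icosl (1.32) and Cd86 (1.09) and about the same change of Pdcd1lg2 (2.87). In a fit of the 2 groups alone (3 libraries against 3), 0 members and 1 of all 18165 genes tested were called, and 6 members had an unadjusted p under 0.05.

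**Figure D4:**
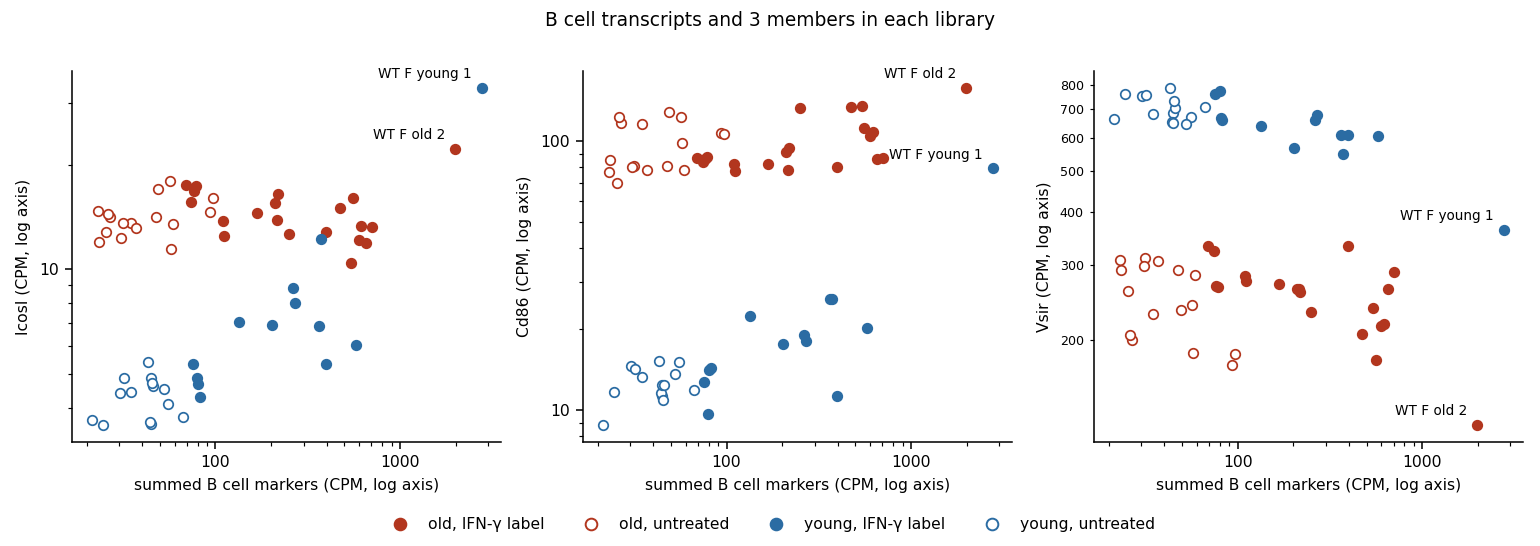
Level of Icosl, Cd86 and Vsir (CPM) against the sum of 10 B cell markers (CPM) in each library, both on log axes. Red marks libraries labelled old and blue those labelled young, and filled points carry the IFN-γ label. The 2 libraries with the highest B cell sums, 2769 and 1991 CPM, are named.

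Genotype, the question of the study's design text, changed 1 member over the mean of the 8 strata. Pirb was higher in KI by a log2 change of 0.11 ± 0.03 (1.08-fold, adjusted p = 0.0406), with averages of 877 CPM in KI and 818 CPM in WT groups, and 9 members were not called (2 of 10 had an unadjusted p under 0.05). Of all genes tested, 0.483% were called higher and 0.673% lower (1.16% in either direction). Leaving out any of 32 of the 63 libraries ended the call of Pirb (adjusted p 0.0204 to 0.103 over the omissions), with a log2 change between 0.09 and 0.12. The changes of Cd80 (-0.05 ± 0.05), Lgals9 (0.04 ± 0.05) and Vsir (0.03 ± 0.06) were about as small as their errors or smaller.

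The genotype difference of Pirb differed between the treatment labels. In old IFN-γ males, KI libraries had 1152, 1039, 965, 948 and 916 CPM against 806, 908, 881, 838 and 794 CPM in WT, so every KI library lay above every WT library (log2 change 0.25 ± 0.07, adjusted p = 0.0239). In young IFN-γ males, KI libraries had 881, 802 and 905 CPM against 671, 653, 670, 698 and 709 CPM in WT, again without overlap (0.34 ± 0.08, adjusted p = 0.0311). Of these KI libraries, number 4 had 16.7 CPM of Gbp2 and 34.0 CPM of Irf1, below the untreated KI young males (47.0 to 310 and 51.3 to 75.1 CPM). Numbers 2 and 3 had 557 and 227 CPM of Gbp2 and 130 and 61.9 CPM of Irf1. The part of this in the change of Pirb was not tested. Omission of 5 of the 10 libraries ended the call in old males (adjusted p 0.0193 to 0.112), and of 7 of the 8 in young males (0.0448 to 0.434). With near-identical library pairs joined (median squared difference under 2.5), 0 members were called in either stratum. Such pairs lay in both WT groups and among the young KI males. In IFN-γ females Pirb was called in neither age label. It averaged 981 CPM in KI and 935 CPM in WT among old ones, and 816 CPM (2 libraries) and 686 CPM among young ones. In untreated males the changes were 0.00 ± 0.09 for old and 0.11 ± 0.09 for young, and in untreated females -0.07 ± 0.07 and -0.11 ± 0.08, with 0 of these 4 untreated strata called. The interaction of genotype with the treatment label, the KI change minus the WT change, was 0.25 ± 0.06 for Pirb (adjusted p = 0.0037).

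Over the 8 genotype strata, 3 of 80 member tests were called higher and 5 lower, where 1.21% of the tests of all genes were called higher and 1.27% lower (2.48% in either direction). Beside both calls of Pirb, Pdcd1lg2 was higher in KI young untreated females, at 2.57, 5.19, 2.54, 3.61 and 4.67 CPM, than in WT ones, at 1.17, 0.930 and 1.64 CPM (log2 change 1.57 ± 0.37, adjusted p = 0.0308), without overlap. It lost the call in 5 of the 8 omissions of a library of either group (adjusted p 0.0223 to 0.437). KI libraries 2 and 5 had the highest Ddx3y of their group (4.13 and 4.37 CPM, against 0.102 to 0.280 CPM). They also had its highest Gbp2 (485 and 459 CPM, against 192 to 201 CPM). The part of this in the change of Pdcd1lg2 was not tested.

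All 5 lower calls lay in young IFN-γ females, the stratum with 2 KI libraries, where 3.79% of all genes were called lower. Pdcd1lg2 was at 1.51 and 3.53 CPM in KI against 12.0, 9.50 and 8.73 CPM in WT (log2 change -2.00 ± 0.42, adjusted p = 0.00271). Icam1 was at 21.2 and 36.9 CPM in KI against 101, 63.5 and 82.3 CPM in WT (-1.50 ± 0.30, adjusted p = 0.00197). Neither gene's libraries overlapped between the genotypes. Cd86 (-1.53 ± 0.36), Icosl (-1.48 ± 0.33) and Cd274 (-0.72 ± 0.21) were lower as well. Without WT young IFN-γ female 1, the library rich in B cell transcripts, Pdcd1lg2 (-1.85, adjusted p = 0.0159) and Icam1 (-1.32, adjusted p = 0.0167) were still called, and Cd86 (-0.67, adjusted p = 0.23), Icosl (-0.57, adjusted p = 0.215) and Cd274 (-0.73, adjusted p = 0.0623) were not. Without KI young IFN-γ female 1, 0 of the 5 were called (Pdcd1lg2 -1.50, adjusted p = 0.173), and with only the 2 groups in the fit 0 of all 19398 genes tested were called (5 members had an unadjusted p under 0.05). Of the IFN-γ response genes, Gbp2 was at 24.3 and 235 CPM in the same KI libraries against 655, 693 and 883 CPM in WT, and Irf1 at 36.1 and 100.5 CPM in KI against 161, 131 and 169 CPM in WT. KI young IFN-γ female 1 lay below the 5 untreated KI young females for both genes (192 to 485 CPM of Gbp2 and 55.6 to 109 CPM of Irf1), and the part of this in the changes of the members was not tested.

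The interaction of genotype with the treatment label was called for 3 members, 1 higher and 2 lower, where 6.36% of all genes were called higher and 5.58% lower (11.9% in either direction). Beside Pirb, it was negative for Pdcd1lg2 (-0.95 ± 0.23, adjusted p = 0.00677) and for Icosl (-0.53 ± 0.18, adjusted p = 0.0471). Icosl was the less stable, with -0.31 (adjusted p = 0.146) without WT young IFN-γ female 1 and the call lost in 36 of 63 omissions, while Pdcd1lg2 stood at -0.92 (adjusted p = 0.011) without that library. The interaction of the age label with the treatment label, the old change minus the young change, was called lower for 3 members and higher for 0, where 0.447% of all genes were called lower and 0.0497% higher (0.497% in either direction). It was -1.41 ± 0.23 for Pdcd1lg2 (adjusted p = 0.000576), -0.83 ± 0.18 for Icosl (adjusted p = 0.0209) and -0.68 ± 0.17 for Icam1 (adjusted p = 0.0413). Icam1 lost that call in 30 of 63 omissions, and Icosl in 2, KI young IFN-γ female 2 (-0.77, adjusted p = 0.0855) and KI young IFN-γ male 2 (-0.80, adjusted p = 0.0622).

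Sex differed for 1 member. Pdcd1lg2 was higher in females, with an average of the group means of 30.9 CPM in females and 23.5 CPM in males and a log2 change of 0.39 ± 0.12 (adjusted p = 0.0188), where 7.13% of all genes were called higher and 6.45% lower (13.6% in either direction). It lost the call without KI young IFN-γ female 2 (0.29, adjusted p = 0.111). Of the 8 dendritic cell genes, 3 were called higher in females and 0 lower, with a median log2 change of 0.48, and their part was not tested. Of the 10 B cell genes, 8 were also higher in females, and without the 2 libraries richest in them the change of Pdcd1lg2 was 0.39 (adjusted p = 0.017). Vsir (-0.18 ± 0.06, adjusted p = 0.0501) and Lgals9 (-0.13 ± 0.05, adjusted p = 0.0526) lay just outside the threshold. Among old untreated libraries, Pdcd1lg2 averaged 73.2 ± 6.11 CPM in KI females (SD, n = 5) and 47.8 ± 6.44 CPM in KI males (n = 3), and 71.6 ± 15.7 CPM in WT females (n = 5) and 40.8 ± 6.62 CPM in WT males (n = 3).

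No member was called for the interaction of genotype with the age label (0 of 10, with 1 at an unadjusted p under 0.05) or with sex (0 of 10, with 1 at an unadjusted p under 0.05), and 0% of all genes were called in either contrast. DESeq2 also called 0 members in both. The largest genotype by age label values were 0.49 ± 0.20 for Cd86 and 0.46 ± 0.23 for Pdcd1lg2.

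Genes of the same pathways were counted by age label as well. Set against the 31.9% of all genes called higher and 38.9% called lower in this contrast, the counts among the receptors and the other ligands are read against 70.8% of all genes called in either direction, and nothing is drawn from them. Of 11 receptors of the members, all tested, 5 were called higher and 3 lower. The LFA-1 chains rose, with 1.79 ± 0.07 for Itgal and 0.69 ± 0.03 for Itgb2, as did Rgmb (0.56 ± 0.04), which encodes a binding partner of PD-L2. Cd28, the CD80 and CD86 receptor of T cells, was at 0.366 to 1.97 CPM under the old label and at 2.60 to 20.4 CPM under the young label, a log2 change of -4.10 ± 0.12 (adjusted p = 2.44e-34) without overlap. The T and NK cell list did not follow it, with 5 of 11 genes called higher and 2 lower by age label (median log2 change 0.47). Cd3e did not exceed 1.13 CPM in any library, and the cell source of the Cd28 reads was not tested. Cd40lg did not exceed 0.343 CPM in any library.

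Of 20 other costimulatory and checkpoint ligand genes, 17 were tested, and 7 were called higher and 4 lower by age label. The TNF-family ligands Tnfsf15 (3.01 ± 0.10) and Tnfsf14 (2.84 ± 0.16) and the receptor Tnfrsf14 (1.65 ± 0.08), which binds the Tnfsf14 product LIGHT, rose, and Cd48, a ligand of the receptor 2B4, fell (-0.85 ± 0.04). Of 16 genes for inhibitory receptors and signalling of myeloid cells, Pirb included, 14 were tested, with 5 called higher and 8 lower. Ptpn6, the SHP-1 phosphatase that acts downstream of such receptors, rose by 1.66 ± 0.04 and the collagen receptor Lair1 by 0.86 ± 0.05, while the sialic acid receptor Siglec1 (-1.11 ± 0.09) and the CD200 receptor Cd200r1 (-0.51 ± 0.04) fell.

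Of 16 genes of CD40 and NF-κB signalling, 13 were called higher and 2 lower, with a median log2 change of 0.70. The NF-κB inhibitors Nfkbie (2.23 ± 0.11) and Nfkbia (1.33 ± 0.06), the apoptosis inhibitor Birc3 (1.36 ± 0.06) and the subunit Nfkb1 (0.72 ± 0.03) rose. Of 21 genes of IFN-γ signal and response, 19 were called higher and 2 lower, with a median of 3.89. Irf8 (1.90 ± 0.05), Igtp (3.89 ± 0.12) and Irgm1 (3.65 ± 0.10) are examples.

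**Figure D5:**
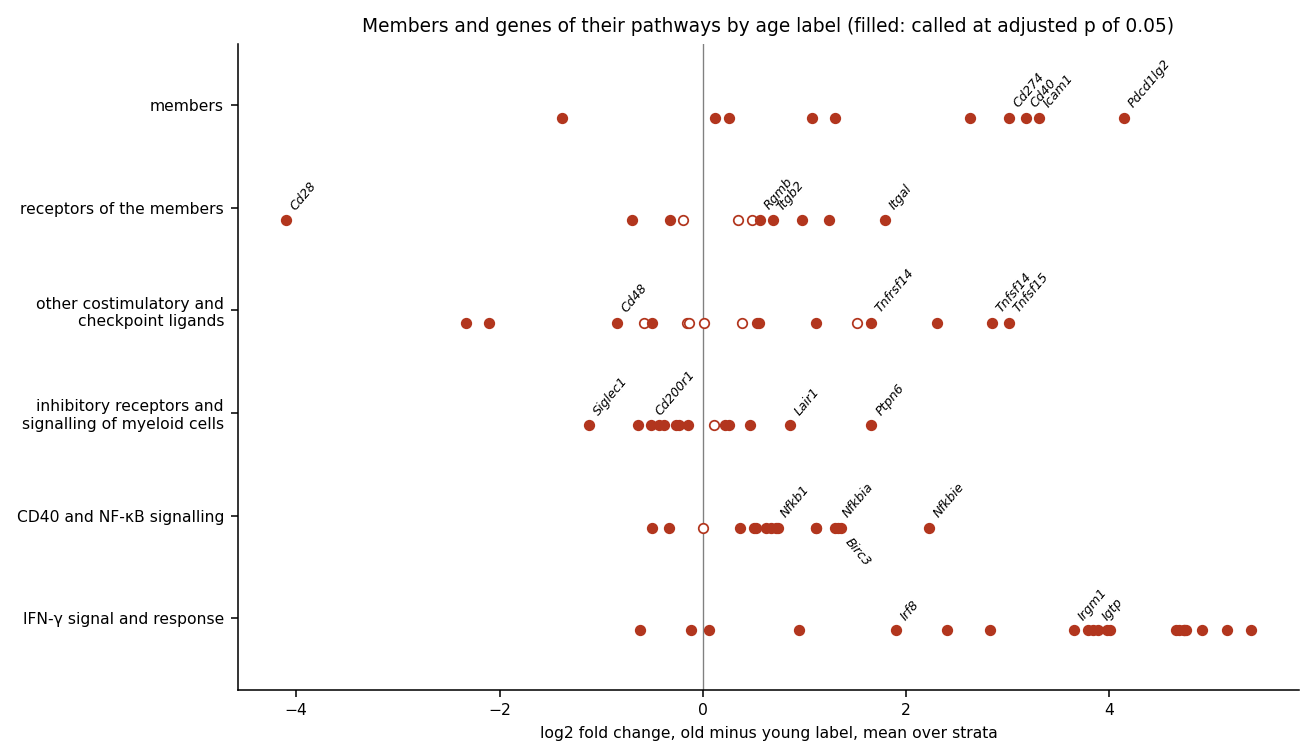
Log2 fold change by age label (old minus young, mean over the strata) of each tested gene in the list of members and in 5 pathway lists, filled where called. The IFN-γ list reaches the highest values, and Cd28 lies farthest below 0.

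By treatment label, where 12% of all genes were called higher and 14.1% lower, 4 of 11 receptors were called higher and 1 lower, 6 of 17 other ligands higher and 4 lower, 0 of 14 inhibitory genes higher and 2 lower, 8 of 16 NF-κB genes higher and 1 lower, and 10 of 21 IFN-γ genes higher and 2 lower. Ctla4 rose by 4.31 ± 0.45, at 2.62 CPM on average with the IFN-γ label and 0.101 CPM untreated, and Cd200 fell by 0.47 on the log2 scale (SE 0.10). Igtp, an IFN-γ-induced GTPase gene, rose by 0.39 ± 0.09 and Nfkbie by 0.42 ± 0.10. By genotype, 0 genes of the receptor, ligand, NF-κB and IFN-γ lists were called, and Pirb was the single call among the inhibitory genes.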

How the data were processed

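The authors deposited whole-number counts per gene and library, and FPKM values for the same genes, of polyadenylated RNA prepared with a directional kit, per the labels' protocols. The submitters' processing notes name STAR 2.7.9a, DESeq2 1.40.2 and GRCm39. The sources used here give no read counter, annotation or strand setting. Symbols, neighbours and overlaps came from a GRCm38 annotation (GENCODE M21), and promoters from RefSeq. Deposited FPKM served only to rank members per length.

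Counts were tested in R 4.3.3 with edgeR 4.0.16 (glmQLFit and glmQLFTest), after TMM scaling (factors 0.886 to 1.233) and filterByExpr with 16 groups, which kept 22147 of 56748 genes and 99.992% of counts. All 63 libraries entered a single fit, each group having its own coefficient (median residual df 47.0). Benjamini-Hochberg adjustment ran over the tested genes of a contrast, and calls were made at 0.05. Total counts were 73.6 to 106.6 M per library. CPM are TMM-scaled. Means over strata weigh strata equally. The procedure was also run on simulated counts, drawn independently for each library with the same dispersion for all genes. That run cannot speak to libraries of a shared source or to transcripts of other cells. Groups follow titles, descriptions and column names, and library numbers follow the descriptions, from which title numbers differ in some groups. Of 102 library pairs within groups, none differed by as little as sampling noise (median squared standardized difference 1.43 to 21.5, against 0.455 for noise), and 11 lay under 2.5. Repeats of a single source can also exceed that noise, so this does not show that libraries came from separate animals or cultures. All were kept as separate libraries in the main fit.

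The 10 members, the pathway and marker lists, the contrasts and the alternatives (RLE size factors, DESeq2 1.42.0, no filter, replicate number as a block, 2-group fits, libraries left out) were chosen with earlier results of these data known. All members are named. From each pathway list up to 4 genes per mean effect are named, by smallest p among those called with at least 1 CPM in the higher group, and any other gene named was picked after its values were seen. For likeness, the gene with the highest Pearson r among 10802 is given. Further alternatives were chosen after seeing the data: omission of the 2 libraries richest in B cell transcripts, and joining of library pairs with a median squared difference under 2.5.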

Additional observations from a re-analysis of the deposited data

Results flagged for a closer look

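In WT old untreated females, library 1 stood above the other 4 libraries for 7 of the 10 members. It had 164 CPM of Cd40, 19.2 CPM of Cd80, 123 CPM of Cd86, 17.9 CPM of Icosl, 545 CPM of Icam1, 1102 CPM of Cd274 and 315 CPM of Lgals9, and for each gene the gap to its nearest neighbour exceeded Dixon's 95% critical value of the group's range. In the other 4 libraries Cd40 was at 79.3 to 82.2 CPM and Cd274 at 739 to 759 CPM. Its Vsir was the lowest of the 5, at 241 CPM against 261 to 313 CPM, and its B cell sum the highest (56.6 CPM against 23.4 to 31.5 CPM). Pdcd1lg2 was set apart in KI old IFN-γ female 3, at 55.8 CPM, and in WT young IFN-γ male 1, at 4.52 CPM. In all, 9 of 80 combinations of gene and group were so marked, where chance marks about 1 in 20, and the 7 of WT old untreated female 1 come from one library.

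The change with the treatment label differed between the genotypes for Icosl (-0.53), Pdcd1lg2 (-0.95) and Pirb (0.25), as KI minus WT on the log2 scale. It differed between the age labels for Icosl (-0.83), Icam1 (-0.68) and Pdcd1lg2 (-1.41), as old minus young. These are the called interaction terms of the edgeR fit, with the adjusted p-values given above.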

How the results depend on the processing

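Of 9890 comparisons of a member's result with an alternative or with a library left out, 9256 kept direction and side of the threshold. Direction was also kept where 231 lost the call and 125 gained one. Another 276 changed direction without a call in either fit, and 2 reversed, changing direction with a call in either fit. The cause of a change was not tested. Both reversals were of Icosl by age label in WT IFN-γ females (-0.15), which became 0.59 without the 2 libraries richest in B cell transcripts and 0.77 without WT young IFN-γ female 1 (range over omissions -0.54 to 0.77). Counts by age label over the strata stayed at 8 to 9 higher and 1 lower throughout.

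By treatment label, members called lower went to 1, against 0 as reported, without the KI old untreated males and without the B cell-rich libraries, and ranged over 0 to 1 in single omissions. By genotype, the 1 higher call became 0 with no filter and with near-identical libraries joined (52 libraries), and 0 to 1 in single omissions. By sex, the 1 higher call became 0 without the KI old untreated males and when joined (0 to 1 in omissions). The 0 lower calls by sex became 1 with RLE size factors, 1 without the B cell-rich libraries, 1 in DESeq2 and 2 with the replicate block (0 to 2 in omissions). They also became 1 without libraries 4 and 5 of treated old KI females, which nearly lacked Xist and were low in Ddx3y.

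For genotype by treatment label, the 1 higher call became 0 when joined, and the 2 lower calls became 1 with no filter, 1 without the B cell-rich libraries, 1 when joined and 4 with the replicate block (1 to 3 in omissions). For age by treatment label, the 3 lower calls became 1 when joined and 5 in DESeq2 (1 to 5 in omissions). Of the tests within strata by treatment label, with only the 2 groups in a fit, 2 were called higher and 6 lower, against 7 and 3 as reported. By genotype within strata, the 3 higher calls became 0 when joined and 5 in 2-group fits, and the 5 lower calls became 2 without the B cell-rich libraries and 0 in 2-group fits (0 to 6 in omissions).

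Replicate numbers did not establish a pairing, but same-numbered libraries were alike more often than others, which the main fit does not model. Of 26 same-numbered pairs that differ in age label, 17 had correlated deviations above 0.1 (median 0.16, lowest -0.58), against 31 of 97 differently numbered pairs (median -0.05). Of 26 same-numbered pairs that differ in treatment label, 11 did, against 20 of 97. The numbers are those of the sample descriptions, which differ from the numbers in the titles for some libraries. With the number as a block, 10 members were called by age label, 3 by treatment label, 1 by genotype and 3 by sex.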
